A study of Homo sapiens with 4 samples.

Results

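The genes described here lie in 2 stretches of the long arm of chromosome 7, at 7q31 and 7q32-33, and were grouped because most of them had fewer reads in Cal51R than in Cal51. Cal51 is a human triple-negative breast cancer cell line, and Cal51R is its doxorubicin-resistant derivative. The group holds 35 named genes of the 17215 in the expression table. They were selected on the measured read counts of all 4 libraries, Cal51R against Cal51, so their values are a description and carry no test. The label "lower in Cal51R" holds for most members but not for all of them. One member, PODXL, was higher in Cal51R, 5 others (DOCK4, BMT2, MDFIC, AASS and CNOT4) did not pass the threshold in either direction, and PTPRZ1 had too few reads to be tested.

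Polyadenylated RNA was sequenced from 2 libraries of each line, and the stated purpose of the series was to find deubiquitinases tied to doxorubicin resistance. Doxorubicin is an anthracycline that poisons topoisomerase II. The sources used here do not say at what dose or for how long the cells were selected, whether Cal51R is 1 clone, or whether the libraries of a line come from separate cultures. The tests therefore measure the spread from one library to the next, and this may be technical.

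The libraries held 17852484 to 21637102 estimated reads, and 3 reads, used as the detection limit, correspond to between 0.139 and 0.175 counts per 1000000 (CPM). The chi-square between the libraries of a line was 4.50 a gene in Cal51 and 6.91 in Cal51R, above what counting noise gives. Of the 8 epithelial markers, KRT8 was abundant in both lines but lower in Cal51R, at 7190 and 8530 CPM against 3960 and 3310 CPM, and so were KRT18 and EPCAM. KRT19 was at 3.49 and 3.37 CPM in Cal51 and at 83.2 and 78.0 CPM in Cal51R, and KRT7 and CDH1 were low in both lines and higher in Cal51R. Of the receptor genes, ESR1 was at 1.11 to 2.60 CPM and ERBB2 at 146 to 171 CPM over all libraries. The 6 fibroblast markers summed to 1620 to 1760 CPM in Cal51 and 395 to 406 CPM in Cal51R, nearly all of it COL1A2, while DCN and LUM were at 0 to 0.233 CPM. The 4 endothelial markers summed to 53.6 to 57.1 CPM in Cal51 and 139 to 146 CPM in Cal51R, mostly PECAM1, with KDR at 0 to 0.0582 CPM. The 5 immune markers summed to at most 12 CPM, mostly CD68, and the 4 mesenchymal markers summed to 773 CPM in both Cal51 libraries and to 1720 and 1780 CPM in those of Cal51R. VIM gave most of that sum in Cal51 (479 and 521 CPM, against 335 CPM in both Cal51R libraries) and FN1 most of it in Cal51R (1350 and 1410 CPM, against 263 and 222 CPM), while CDH2 was lower in Cal51R, at under 0.5 CPM. The part of these markers in the results was not tested. In bulk RNA, fewer cells expressing a gene and less RNA per cell cannot be told apart.

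The chromosome 7 genes encode proteins of unrelated function, and several are known from cell architecture. CAV1 and CAV2 build caveolae, the flask-shaped pits of the plasma membrane that buffer tension and organise signalling, with CAV1 as the scaffold that CAV2 joins. Caldesmon, capping protein, myotrophin and testin act on actin filaments and at the adhesions to which these attach. Other members encode subunits of the vesicle coats, tethers and ligases that cells use everywhere.

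Positions are those of the RefSeq table for GRCh38.p14, the assembly called hg38 in the processing notes. The proximal stretch, from IMMP2L to CADPS2, spans chr7:110662644-122886460 and holds 20 members. The distal stretch, from ZC3HC1 to MTPN, spans chr7:130018286-135977359 and holds 15. CAV2 (chr7:116499738-116508541) and CAV1 (chr7:116525009-116561185) are direct neighbours in the proximal stretch.

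RefSeq promoter windows, from 250 bases before to 50 after a start of the gene, were found for 31 of the 35 members, PODXL not among them. This start need not be the outer end of the annotated span. For TSPAN12, on the minus strand, that end is 120858335, which falls inside the window and fewer than 250 bases into it. The 5 windows below are shown because CAV2 and CAV1 are neighbours that were both lower, TSPAN12 and CPED1 had the lowest fold changes of all members, and MDFIC had the least negative fold change among members with a window. Each is printed 5′ to 3′ on the strand of its gene, and the capitals mark CG dinucleotides, the sites of DNA methylation in human cells.
CAV2 (GRCh38.p14, chr7:116499488-116499787, plus strand): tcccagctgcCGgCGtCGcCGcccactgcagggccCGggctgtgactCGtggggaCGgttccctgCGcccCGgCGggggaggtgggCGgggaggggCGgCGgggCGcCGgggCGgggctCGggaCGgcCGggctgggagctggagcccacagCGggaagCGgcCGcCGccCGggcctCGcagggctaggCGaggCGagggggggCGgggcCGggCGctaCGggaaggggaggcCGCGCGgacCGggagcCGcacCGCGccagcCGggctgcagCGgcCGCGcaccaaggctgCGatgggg
CAV1 (GRCh38.p14, chr7:116524759-116525058, plus strand): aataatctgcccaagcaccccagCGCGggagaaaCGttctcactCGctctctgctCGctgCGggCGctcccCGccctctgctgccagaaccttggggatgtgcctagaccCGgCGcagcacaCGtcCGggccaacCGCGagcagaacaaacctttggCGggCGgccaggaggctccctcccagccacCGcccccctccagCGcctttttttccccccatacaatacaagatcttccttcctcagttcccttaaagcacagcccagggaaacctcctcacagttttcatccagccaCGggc
TSPAN12 (GRCh38.p14, chr7:120858095-120858394, minus strand): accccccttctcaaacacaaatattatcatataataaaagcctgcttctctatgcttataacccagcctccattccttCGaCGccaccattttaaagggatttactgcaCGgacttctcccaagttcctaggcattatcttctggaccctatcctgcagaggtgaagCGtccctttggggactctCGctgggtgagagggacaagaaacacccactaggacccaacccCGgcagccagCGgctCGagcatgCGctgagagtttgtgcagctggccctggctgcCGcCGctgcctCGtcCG
CPED1 (GRCh38.p14, chr7:120988461-120988760, plus strand): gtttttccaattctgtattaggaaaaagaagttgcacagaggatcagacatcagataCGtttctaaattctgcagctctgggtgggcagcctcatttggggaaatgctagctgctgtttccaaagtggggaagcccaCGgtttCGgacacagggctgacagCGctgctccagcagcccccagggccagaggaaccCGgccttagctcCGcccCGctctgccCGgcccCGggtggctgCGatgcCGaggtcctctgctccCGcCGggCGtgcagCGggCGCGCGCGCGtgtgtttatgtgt
MDFIC (GRCh38.p14, chr7:114921844-114922143, plus strand): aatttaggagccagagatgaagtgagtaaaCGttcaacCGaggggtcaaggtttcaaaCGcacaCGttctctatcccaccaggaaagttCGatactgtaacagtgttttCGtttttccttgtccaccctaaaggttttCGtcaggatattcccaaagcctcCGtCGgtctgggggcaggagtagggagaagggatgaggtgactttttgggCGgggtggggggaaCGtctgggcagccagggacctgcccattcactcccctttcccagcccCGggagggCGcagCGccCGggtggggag

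The motif CG, which reads the same on both strands, occurred 43 times in the CAV2 window, 19 times in that of CAV1, 13 times in that of TSPAN12, 20 times in that of CPED1 and 15 times in that of MDFIC. The 2 windows of the lowest members thus lay on either side of the MDFIC count. Over the 31 members with a window the number ranged from 7 (CALD1) to 53 (CTTNBP2), with a median of 27. The median was 25 over the 30 tested ones, against 26 over 11113 tested genes with a window. Over all 35116 windows of the table it was 14. Of the members, 3 (CALD1, TSPAN12 and MEST) had fewer than 15, or 9.68%, and 10% of the tested members. The share was 19.7% in the tested genes and 51.1% in all windows. These counts describe the reference sequence, and methylation was not measured.

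Taken as one sum, the members' level was 3000 and 3010 CPM in the Cal51 libraries and 1260 and 1310 CPM in the Cal51R libraries. The lines did not overlap in this sum. CALD1 alone gave 861 and 871 CPM of it in Cal51, and 177 and 190 CPM in Cal51R. Of the 35 members, 34 had enough reads for edgeR's quasi-likelihood test over all genes. In that fit 28 were lower in Cal51R at an adjusted p under 0.05, the threshold for a call throughout, and 1 was higher, where 35.5% of all 13674 tested genes were lower and 35.3% higher. By at least 2-fold, 17 members were lower, against 9.87% of all tested genes. The lines did not overlap, with Cal51R lower, in 30 members, against 42.0% of all tested genes. The members were selected on this very contrast, so nothing is read from these shares.

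The members' log2 fold changes, Cal51R over Cal51, had a median of -1.05 and ran from -7.54 to 1.17, beside a median of 0.02 over all tested genes. In 5 members (TSPAN12, CPED1, CADPS2, CEP41 and MEST) the log2 fold change was at or below -3, in 12 it lay between -3 and -1, in 11 between -1 and -0.3, and in 5 within 0.3 of 0. The medians of the 19 tested proximal members and the 15 distal members were -0.99 and -1.21. Standard errors (SE) were 0.07 to 0.65 on the log2 scale, with a median of 0.09, and the libraries of a line differed by a median of 0.08 (Cal51) and 0.10 (Cal51R) on that scale. Scaling by library totals in place of TMM factors moved the median of all genes from 0.02 to 0.21, and the members' median to -0.85. The distance between the members' median and that of all genes was -1.06 under both scalings, since a change of scaling shifts all genes nearly alike. It was -0.96 with at least 5 CPM in 2 libraries and on log2(FPKM + 0.1), and -0.77 on log2(FPKM + 1).

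**Figure D1:**
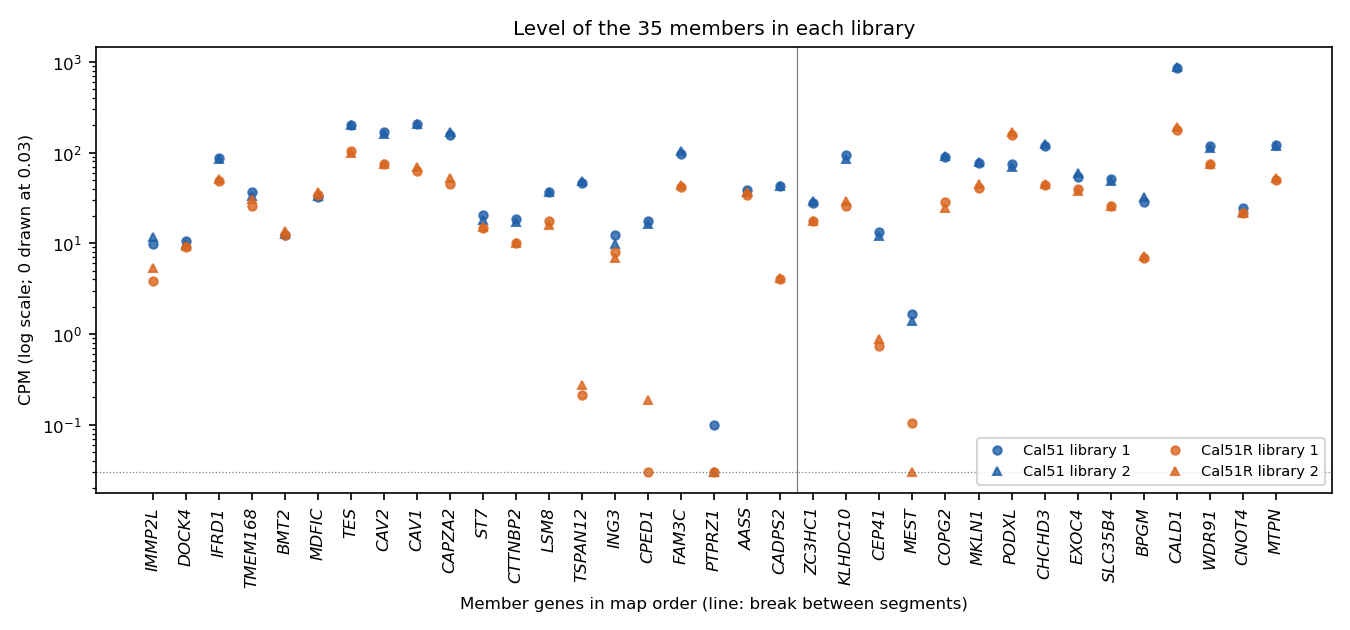
Level of each member in the 4 libraries, in CPM on a log scale with 0 drawn at 0.03, with the genes in map order and a line at the break between the proximal and the distal stretch. Circles are library 1 and triangles library 2 of Cal51 (blue) and Cal51R (orange). Most orange points lie below the blue ones, those of TSPAN12, CPED1, MEST and CEP41 at under 1 CPM, while PODXL lies above, at 156 and 167 against 74.9 and 68.7 CPM.

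All 8 members that act in caveolae, on actin or at adhesions were below 0 in log2 fold change, and 7 of them passed as lower. Over all tested genes 35.5% were lower, and 9.87% by at least 2-fold. The members were selected on this contrast, so no count by function, here or below, is read as a result. CAV1 was at 205 and 204 CPM in Cal51 and at 63.4 and 69.4 CPM in Cal51R, a log2 fold change of -1.62 ± 0.08 (SE, n = 2 libraries a line). CAV2 was at 167 and 162 CPM against 74.4 and 74.2 CPM, or -1.14 ± 0.07. Both caveolins were lower in both Cal51R libraries, without overlap between the lines. Per length, on the authors' FPKM scale, CAV1 averaged 76.8 and CAV2 52.8 in Cal51, and the pair averaged 28.2 and 27.4 in Cal51R.

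CALD1, caldesmon, which binds actin, tropomyosin and myosin, had the highest level of all members on the FPKM scale, 192 in Cal51 and 46.5 in Cal51R. Its 861 and 871 CPM in Cal51 and 177 and 190 CPM in Cal51R gave a log2 fold change of -2.24 ± 0.08. On the FPKM scale it was followed in Cal51 by CAV1 (76.8), CHCHD3 (73.4) and TES (70.2). In Cal51R it was followed by TES (40.6), CHCHD3 (30.7) and PODXL (29.6), so PODXL had moved into the upper ranks of the group.

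Capping protein closes the growing ends of actin filaments. CAPZA2, one of its alpha subunits, was at 156 and 167 CPM in Cal51 and at 44.6 and 52.7 CPM in Cal51R, a log2 fold change of -1.73 ± 0.09. MTPN, myotrophin, which binds capping protein and holds it off the filament, was at 120 and 118 CPM against 50.4 and 52.1 CPM, or -1.21 ± 0.08. Subunit and inhibitor, one near the middle of the proximal stretch and the other at the end of the distal one, were thus both lower in both Cal51R libraries. TES, testin, a LIM domain protein of focal adhesions, was at 203 and 201 CPM against 104 and 99.6 CPM, or -0.99 ± 0.07. CTTNBP2, a cortactin-binding protein, was at 18.4 and 17.2 CPM against 10.2 CPM in both Cal51R libraries, or -0.80 ± 0.12. DOCK4, an exchange factor for small GTPases of the Rac and Rap kind, was at 10.7 and 9.89 CPM against 9.01 and 9.46 CPM, or -0.16 ± 0.13, without passing. Its lines did not overlap, but by less than the spread within Cal51, and with library totals its fold change turned to 0.04.

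The widest differences were among the members at the cell surface or secreted from it. TSPAN12, a tetraspanin that joins the receptor complex for the ligand Norrin, was at 45.9 and 48.5 CPM in Cal51 and at 0.212 and 0.278 CPM in Cal51R. These levels rest on 932 and 834 reads against 4 and 6, and gave a log2 fold change of -7.54 ± 0.19, the lowest of all members. CPED1, a protein with a cadherin-like and an esterase domain, was at 17.6 and 16.3 CPM in Cal51 and at 0 and 0.186 CPM in Cal51R, from 358 and 280 reads against 0 and 4. Both genes were thus near or below the limit of detection in Cal51R. ING3, which lies between them on the map, stood at -0.59 on the log2 scale.

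FAM3C, a secreted protein of the interleukin-like FAM3 family, was at 96.7 and 105 CPM in Cal51 and at 42.0 and 43.8 CPM in Cal51R, a log2 fold change of -1.23 ± 0.08. PODXL, podocalyxin, a sialomucin that keeps apical membranes apart, was at 74.9 and 68.7 CPM in Cal51 and at 156 and 167 CPM in Cal51R. The increase of 1.17 ± 0.08 on the log2 scale, or 2.25-fold, was the one clear increase in the group. Both of its tested neighbours among the members were lower, MKLN1 on one side and CHCHD3 on the other. PTPRZ1, a receptor tyrosine phosphatase, had 2 and 0 reads in the Cal51 libraries and none in those of Cal51R, so no difference was detectable at this depth and no fold change is given.

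All 5 members of the secretory and endosomal routes were lower, against 35.5% of all tested genes. CADPS2, which readies dense-core vesicles for release, was at 42.3 and 43.2 CPM in Cal51 and at 4.08 and 4.13 CPM in Cal51R, or 10.4-fold lower, with a log2 fold change of -3.38 ± 0.12. COPG2, a gamma subunit of the COPI coat of Golgi vesicles, was at 89.3 and 91.3 CPM against 28.6 and 24.3 CPM, or -1.77 ± 0.09. The libraries of a line lay close together in both. SLC35B4, a carrier of nucleotide sugars, was at 51.3 and 48.9 CPM against 25.5 CPM in both Cal51R libraries, or -0.98 ± 0.09. WDR91, which acts in the maturation of endosomes, was at 118 and 113 CPM against 75.7 and 74.6 CPM, or -0.62 ± 0.07. EXOC4, a subunit of the exocyst that tethers vesicles at the plasma membrane, was at 54.4 and 59.7 CPM against 39.4 and 37.4 CPM, or -0.57 ± 0.09. WDR91 and EXOC4 were thus lower by less than 2-fold, and their lines did not overlap.

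The 3 members of ubiquitin ligases and the centrosome were lower as well, against 35.5% of all tested genes. CEP41, a centrosomal protein needed for glutamylation of tubulin in cilia, was at 13.2 and 11.9 CPM in Cal51 and at 0.742 and 0.882 CPM in Cal51R, 15.3-fold lower, with a log2 fold change of -3.94 ± 0.21. KLHDC10, a kelch protein that brings substrates to a cullin ligase, was at 94.5 and 85.4 CPM against 26 and 29.6 CPM, or -1.69 ± 0.09. MKLN1, muskelin, a subunit of the CTLH ubiquitin ligase, was at 76.8 and 78.5 CPM against 40.6 and 44.5 CPM, or -0.87 ± 0.08. Of these, CEP41 was at under 1 CPM in Cal51R, and KLHDC10 and MKLN1 were above 20 CPM in every library.

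Of the 5 members of mitochondria and metabolism, 4 were lower by at least 2-fold, against 9.87% of all tested genes. BPGM, the enzyme that makes 2,3-bisphosphoglycerate, was at 28.6 and 32.2 CPM in Cal51 and at 6.89 and 7.28 CPM in Cal51R, a log2 fold change of -2.10 ± 0.12. CHCHD3, a subunit of the MICOS complex that shapes the cristae of mitochondria, was at 119 and 125 CPM against 43.9 and 45 CPM, or -1.46 ± 0.08. Neither showed overlap between the lines. IMMP2L, a peptidase of the inner mitochondrial membrane and the first gene of the proximal stretch, was at 9.85 and 11.6 CPM against 3.82 and 5.38 CPM, or -1.21 ± 0.17. AASS, which starts the breakdown of lysine, was at 38.3 and 36.5 CPM against 34.3 and 37.0 CPM, so its lines overlapped, and its fold change of -0.07 ± 0.09 turned to 0.13 with library totals.

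MEST, an imprinted gene for a protein with a hydrolase fold, was low in both lines, with 34 and 24 reads in Cal51 against 2 and 0 in Cal51R. Its level in Cal51 was 31.3 times that in Cal51R, with a 95% interval from counting error of 8.27 to 264 times. The annotated span of COPG2 overlaps those of MEST and TSGA13. No source used here says that counting used the strand. Reads from these overlaps therefore cannot be told apart, and the same holds for IMMP2L with LRRN3 and for CADPS2 with RNF133 and RNF148. LRRN3, RNF133 and RNF148 had at most 4 reads in any library.

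The 7 members of the nucleus, of RNA metabolism and of intracellular signalling had a median log2 fold change of -0.59. Of them 4 passed as lower, against 35.5% of all tested genes. LSM8, the subunit that makes the LSM ring of U6 small nuclear RNA nuclear, was at 36.4 and 36.5 CPM in Cal51 and at 17.8 and 16.1 CPM in Cal51R, a log2 fold change of -1.11 ± 0.10. It was the one member of these 7 that was lower by at least 2-fold. IFRD1, a transcriptional co-regulator, was at 87.4 and 85.2 CPM against 48.3 and 51.3 CPM, or -0.79 ± 0.08. ZC3HC1, a protein of the nuclear basket, was at 28.1 and 29.6 CPM against 17.8 and 17.6 CPM, or -0.70 ± 0.10. ING3, a histone mark reader of the NuA4 acetyltransferase complex, was at 12.5 and 9.83 CPM against 8.11 and 6.82 CPM, or -0.59 ± 0.15. The first 3 kept their call whichever library was left out, while ING3 lost its own without the first Cal51 library.

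The other 3 did not pass. CNOT4, a ubiquitin ligase linked to the CCR4-NOT deadenylase, was at 24.2 and 22 CPM in Cal51 and at 21.5 and 21.6 CPM in Cal51R, a fold change of -0.10 ± 0.10 on the log2 scale that turned to 0.09 with library totals. BMT2, the S-adenosylmethionine sensor of the mTORC1 pathway, was at 12.5 and 12.6 CPM against 12.4 and 13.5 CPM, and its lines overlapped. MDFIC, a protein with the I-mfa domain that restrains transcription factors, was at 32.5 and 33.5 CPM against 33.7 and 36.9 CPM, a log2 fold change of 0.10 ± 0.09, and passed as higher at 0.30 with library totals. BMT2 and MDFIC are neighbours among the members. Next to them lies TMEM168, a membrane protein of little known function, which was at 36.6 and 33.6 CPM against 25.8 and 30.7 CPM. Its fold change of -0.31 ± 0.10 was the smallest of the members called lower, and became -0.11, without a call, under library totals. It also lost its call without the first library of either line, at -0.26 (Cal51) and -0.20 (Cal51R). ST7, named as a suppressor of tumorigenicity, was at 20.4 and 18.2 CPM against 14.6 and 15.2 CPM, or -0.38 ± 0.11, and also lost its call under library totals, at -0.18, and without the first Cal51 library, at -0.30.

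Members at a like map position thus differed widely among themselves. In the proximal stretch, TMEM168, BMT2 and MDFIC lay within 0.31 of 0 on the log2 scale, TES, CAV2, CAV1 and CAPZA2 followed at -0.99 to -1.73, and ST7 stood at -0.38 next to CAPZA2. In the distal stretch, CNOT4 at -0.10 stood between WDR91 at -0.62 and MTPN at -1.21. At least 5 CPM on average in both lines were reached by 28 of the 34 tested members, and 5 (IMMP2L, TSPAN12, CPED1, CADPS2 and CEP41) reached it in Cal51 and not in Cal51R.

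The member list leaves out 37 genes of the table that start inside the same stretches, of which 17 were tested. They are described without a test, since the region was selected on this contrast. Of these 17, 14 were lower and 0 higher, against 35.5% and 35.3% of all tested genes, with a median log2 fold change of -1.14, also with the gene at 0 reads in Cal51R set to its bound. MET, the receptor for hepatocyte growth factor, lies between CAV1 and CAPZA2 and was at 140 and 122 CPM in Cal51 and at 0.742 and 0.789 CPM in Cal51R, a log2 fold change of -7.41 ± 0.15. CPA4, a carboxypeptidase gene near CEP41, was at 22.6 and 20.7 CPM against 0.265 and 0.278 CPM, or -6.28 ± 0.22. With these, genes at under 1 CPM in Cal51R lay beside genes with log2 fold changes between -3 and -1 in both stretches.

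CPA1, a pancreatic carboxypeptidase, was at 4.09 and 4.19 CPM against 0.159 and 0.418 CPM. KLF14, a transcription factor gene, was at 1.13 and 0.931 CPM in Cal51 and had no read in Cal51R, which is at least 6.92-fold lower against 3 counts per library. TFEC, a transcription factor of the MITF family, was at 0.738 and 0.989 CPM against 0 and 0.0464 CPM, a level in Cal51 34.5 times that in Cal51R with an interval of 5.76 to 1404. All 3 were low in both lines. The remaining non-members lower by at least 2-fold were TMEM209 (-2.05 ± 0.10), CFTR (-1.78 ± 0.43), SMIM30 (-1.65 ± 0.12), STMP1 (-1.14 ± 0.10) and NUP205, a nuclear pore scaffold (-1.11 ± 0.08), all on the log2 scale, of which CFTR lost its call with DESeq2.

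Between the stretches lie 36 further genes of the table, 29 of them tested. Of these 20 were lower and 6 higher, against 35.5% and 35.3% of all tested genes, with a median log2 fold change of -0.92. They lie inside the region selected on this contrast and are also described without a test. CALU, calumenin of the endoplasmic reticulum, was at 511 and 485 CPM in Cal51 and at 169 and 184 CPM in Cal51R (-1.50 ± 0.08). FLNC, filamin C, an actin crosslinker, was at 410 and 401 CPM against 165 and 150 CPM (-1.37 ± 0.08). SND1, a nuclease of RNA silencing complexes, was at 299 and 312 CPM against 127 and 113 CPM (-1.35 ± 0.08). The lines did not overlap in any of these 3.

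The lowest of the intervening genes were HYAL4, a hyaluronidase family member, at -2.94 ± 0.30, and HILPDA, a lipid droplet protein induced in hypoxia, at -2.47 ± 0.11. ATP6V1F, SMO (the Hedgehog signal transducer), STRIP2, NDUFA5, IMPDH1, TNPO3, UBE2H and RBM28 lay between -1.29 and -1.02. GPR37, at -1.04 ± 0.53, did not pass. Those higher by at least 2-fold were IRF5, an interferon regulatory factor, which went from 1.77 and 1.63 CPM to 10.7 and 8.86 CPM (2.51 ± 0.20), and the low genes ATP6V1FNB, FAM71F2 and CCDC136, of which FAM71F2 lost its call without the second Cal51R library (0.72). So the stretch between the members was mostly lower too, with 6 of its 29 tested genes called higher.

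**Figure D2:**
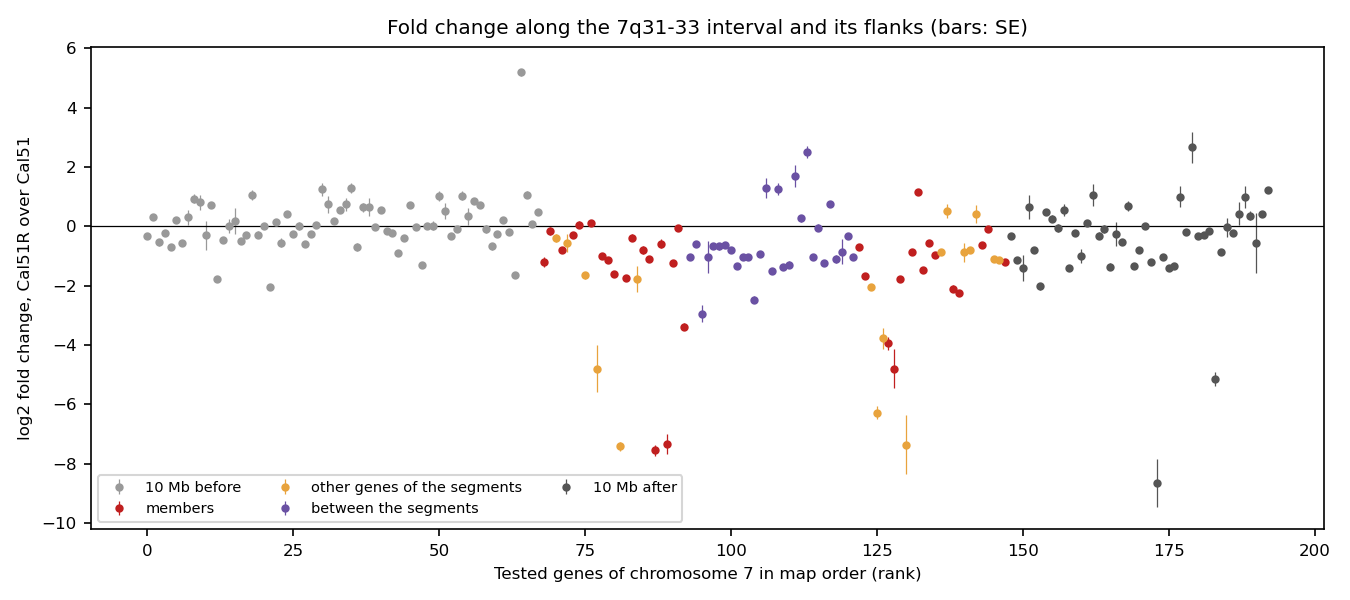
Log2 fold change, Cal51R over Cal51, of each tested gene of chromosome 7 from 10 Mb before the proximal stretch to 10 Mb after the distal one, against its rank in map order; bars are SE. Red points are members, orange points other genes of the stretches and purple points genes between them. Red, orange and purple points lie mostly below 0, with PODXL at 1.17 and IRF5 at 2.51 above it, and the light grey points before them scatter around 0.01.

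The last 3 tested genes before the proximal stretch were PNPLA8, a phospholipase, at 1.07 ± 0.11, THAP5 at 0.09 ± 0.08 and DNAJB9, a chaperone of the endoplasmic reticulum, at 0.49 ± 0.09. The first tested genes inside were IMMP2L at -1.21, DOCK4 at -0.16 without a call, ZNF277 at -0.40 and IFRD1 at -0.79. Lower genes and values near 0 were thus mixed at this end, the latter up to BMT2 at 0.05 and MDFIC at 0.10. Over the 10 Mb before the proximal stretch, 25 of 68 tested genes were lower and 21 higher, with a median of 0.01. The first 3 tested genes after MTPN were CREB3L2 at -0.34 ± 0.08, TRIM24 at -1.13 ± 0.10 and ATP6V0A4 at -1.40 ± 0.43. CREB3L2 lost its call with library totals, at -0.14, and ATP6V0A4 lost its own with DESeq2 and, at -0.91, without the first Cal51R library. Over the 10 Mb after the distal stretch 24 of 45 tested genes were lower and 10 higher, with a median of -0.27. On the inner sides, NDUFA5, WASL and HYAL4 followed the proximal stretch at -1.04, -0.61 and -2.94, and SMKR1, NRF1 and UBE2H preceded the distal one at -0.86, -0.34 and -1.04, SMKR1 without passing and NRF1 without a call under library totals or without the first Cal51 library. The rest of chromosome 7, with 463 tested genes, had a median of -0.03.

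Chromosomes were also divided into bins of 5 Mb, and 444 bins with at least 10 tested genes were compared. The 5th to 95th percentile of the bin medians ran from -0.45 to 0.55. The lowest of all bins was 130 to 135 Mb of chromosome 7, with a median of -1.69 over 19 tested genes, 17 of them lower. The second lowest was 115 to 120 Mb, at -1.38, where 10 of 10 tested genes were lower. The bins 120 to 125 Mb (-1.04) and 125 to 130 Mb (-0.89) ranked 7 and 8 from the lowest. The bin before, 105 to 110 Mb, stood at 0.09. The bin 135 to 140 Mb, at -0.48, still holds the end of the distal stretch, with WDR91, CNOT4 and MTPN. Those after it stood at -0.29 (140 to 145 Mb) and 0.23 (145 to 150 Mb). The bin 110 to 115 Mb had fewer than 10 tested genes and is not ranked. Ranks 3, 5 and 6 were bins of chromosome 13 and rank 4 one of chromosome 9, so medians from -1.21 to -1.05 occurred on other chromosomes too. The region was selected on this contrast and its bins hold many of the members, so their ranks are a description. Bins of so few genes vary, and no test of a bin was made.

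**Figure D3:**
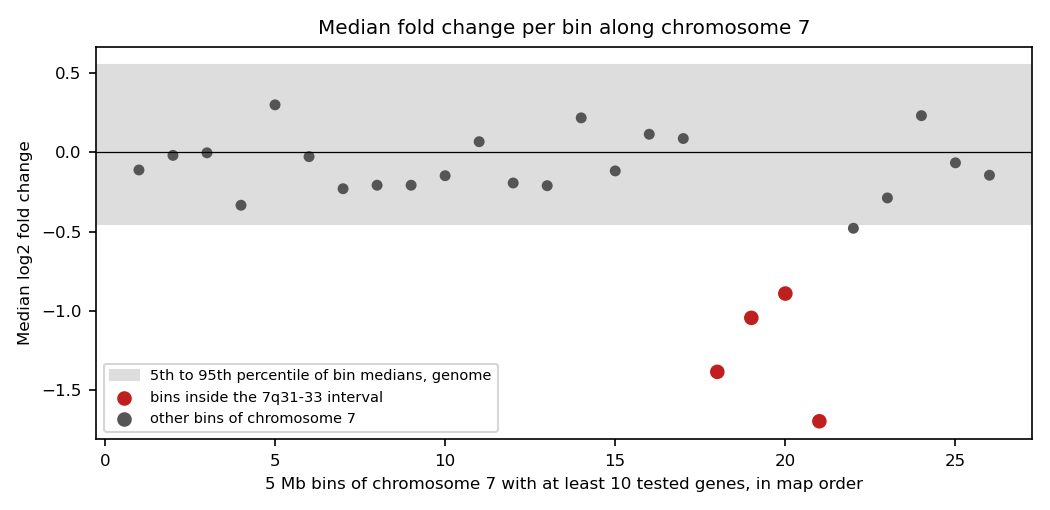
Median log2 fold change, Cal51R over Cal51, of the tested genes in each 5 Mb bin of chromosome 7 with at least 10 of them, in map order; the band is the 5th to 95th percentile of bin medians over the genome, -0.45 to 0.55. The 4 red bins, from 115 to 135 Mb, lie between -1.69 and -0.89, below the band, in a region selected on this contrast. The other bins lie within it except that of 135 to 140 Mb at -0.48, which holds the end of the distal stretch.

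The members' complexes, families and pathways were then followed in genes elsewhere in the genome. These partners, 253 genes in 28 lists, were chosen for function, none lies in the stretches and 12 are on chromosome 7. Of 236 tested partners, 99 were lower and 67 higher by edgeR's test, against 35.5% and 35.3% of all tested genes, and their median log2 fold change was -0.10. By at least 2-fold, 14 were lower, or 5.93%, against 9.87% of all tested genes. The balance depends on the scaling: with library totals 71 partners were lower and 103 higher, with a median of 0.10, and the medians of 6 of the 28 lists changed sign.

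Among 10 tested caveolar partners, 5 were lower and 2 higher. CAVIN1, the coat protein that assembles with CAV1, fell from 417 and 434 CPM to 347 and 293 CPM (log2 fold change -0.41 ± 0.08, edgeR adjusted p = 0.000352). EHD4, a membrane-bending ATPase of the EHD family, fell from 143 and 149 CPM to 41.0 and 38.3 CPM (-1.89 ± 0.08, edgeR adjusted p = 3.68e-12), while CAVIN2 rose from 5.86 and 5.70 CPM to 18.6 and 19.6 CPM (1.72 ± 0.13, edgeR adjusted p = 5.07e-09). CAVIN3 fell (-1.35) and ROR1, a receptor that binds CAVIN1, rose (1.94). With library totals 4 were lower and 4 higher, and the list's median of -0.14 turned to 0.06.

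Among 12 tested genes of actin capping, 4 were lower and 6 higher (2 and 7 with library totals), with a median of 0.22. CAPZA1, the other alpha subunit, fell from 218 and 220 CPM to 163 and 176 CPM (-0.37 ± 0.07, edgeR adjusted p = 0.000247), and CAPZB, the beta subunit, from 297 and 327 CPM to 229 and 202 CPM (-0.53 ± 0.08, edgeR adjusted p = 2.29e-05). CARMIL1, a regulator that removes capping protein from filaments, rose from 83.5 and 77.9 CPM to 173 and 189 CPM (1.17 ± 0.08, edgeR adjusted p = 1.24e-09). The partner subunits were thus lower by less than CAPZA2, whose value of -1.73 is a description.

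The 3 lists with the largest excess of lower genes over higher ones were those of actin filament binding, of testin's partners at adhesions and of the LSM rings. Among 16 actin-binding genes near CALD1 in function, 11 were lower and 3 higher, with a median of -0.76, and 11 and 4 with library totals. TAGLN, transgelin, fell from 302 and 328 CPM to 89.4 and 78.0 CPM (-1.91 ± 0.08, edgeR adjusted p = 5.53e-12) and MYH10, a nonmuscle myosin, from 701 and 668 CPM to 236 and 249 CPM (-1.50 ± 0.08, edgeR adjusted p = 3.15e-11), while MYH9, its paralog, rose from 836 and 829 CPM to 1040 and 984 CPM (0.28 ± 0.07, edgeR adjusted p = 0.00284). Among 13 partners of testin at adhesions, 10 were lower, with ENAH at -1.46 and TLN1, talin, at -1.03, and 2 higher, LPP at 0.53 and TLN2 at 0.71, and with library totals 8 were lower and 3 higher. Of 11 genes of the LSM rings, their family and partners, 9 were lower, by at most 0.90 on the log2 scale (LSM4), and 2 higher. With library totals 7 were lower and 2 higher.

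Most genes of the exocyst and COPI coat lists were not lower like their member. Of 10 exocyst partners, 5 were higher and 2 lower (8 and 1 with library totals), with EXOC7 going from 134 and 136 CPM to 249 and 233 CPM (0.84 ± 0.07, edgeR adjusted p = 3.49e-08), and the 2 lower ones being the exocyst-binding GTPases RALA (-0.37) and RALB (-0.52), of which RALA lost its call with library totals. Of 13 genes of the COPI coat and its partners, 5 were higher and 2 lower (10 and 1 with library totals). The lower ones were ARF1 (-0.63) and the coat subunit COPZ1 (-0.22), the latter without a call in several alternatives. COPG1, the other gamma subunit, was at 184 and 190 CPM in Cal51 and at 203 and 194 CPM in Cal51R (0.09 ± 0.07, edgeR adjusted p = 0.29), and COPZ2, a zeta subunit, rose from 2.26 and 1.92 CPM to 15.3 and 14.8 CPM (2.83 ± 0.17, edgeR adjusted p = 2.22e-10). Of 5 vesicle priming genes, 2 fell, among them UNC13D (-2.31), and 3 rose, among them UNC13C (2.90). Of 5 endosomal partners of WDR91, 2 were lower, RAB7A (-0.76) and WDR81 (-0.27), the latter without a call in several alternatives, and with library totals 1 was lower and 2 higher. Of 11 nucleotide sugar carriers, 4 were lower and 2 higher, and 3 each way with library totals.

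At the cell surface, the 3 tested genes of the Norrin receptor were all higher in the main test. LRP6 went from 177 and 155 CPM to 323 and 361 CPM (1.04 ± 0.08, edgeR adjusted p = 1.33e-08). FZD4 went from 89.0 and 81.3 CPM to 105 and 112 CPM (0.35 ± 0.08, edgeR adjusted p = 0.000841), though it lost its call without the second Cal51 library. LRP5 was higher by less (0.22 ± 0.08, edgeR adjusted p = 0.0255). With DESeq2 and with the replicate block, 2 of the 3 were called higher. TSPAN12, their partner on chromosome 7, stood at under 0.3 CPM in Cal51R. Of 4 genes for ligands and relatives of PTPRZ1, 2 fell and 2 rose, among them NRCAM, an adhesion molecule on chromosome 7 outside the stretches, from 3.69 and 2.91 CPM to 114 and 127 CPM (5.18 ± 0.12, edgeR adjusted p = 3.63e-15). Of 7 partners of podocalyxin, 3 were lower and 1 higher, a balance that turned to 2 and 3 with library totals. FAM3A, the one tested relative of FAM3C, did not pass (-0.19 ± 0.10, edgeR adjusted p = 0.093).

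Among genes of mitochondria and metabolism, 7 of 12 genes of MICOS and its partners were lower and 2 higher. Of the partners, SAMM50 fell by 0.82 and DNAJC11 by 0.62 on the log2 scale. Of 5 tested genes around BPGM, 3 were lower and 0 higher, and the glycolytic enzyme PGAM1 fell from 926 and 915 CPM to 385 and 338 CPM (-1.35 ± 0.08, edgeR adjusted p = 2.80e-10). Of 6 genes around IMMP2L, 4 were lower and 1 higher, and 1 each way with library totals. Of 6 genes of lysine degradation 3 were lower and 2 higher, and 1 and 2 with library totals. Among ubiquitin and centrosome partners, 2 of 10 CTLH genes were lower and 4 higher (0 and 7 with library totals). Of 8 genes of the KLHDC family and its cullin ligase, 2 were lower and 1 higher (1 and 3). Of 6 genes around tubulin glutamylation, 1 was lower and 3 higher (1 and 5).

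Of the nuclear and signalling lists, the 13 genes of CCR4-NOT and its partners held 5 lower and 3 higher. This balance turned to 1 and 6 with library totals. The 16 genes of NuA4 and the ING family held 6 lower and 6 higher (5 and 8 with library totals), with YEATS4 at -1.11 and EPC1 at 0.76. The 5 genes of the nuclear basket and its partners held 1 lower (NUP50, -1.25) and 2 higher. Those of the KICSTOR and GATOR1 branch of mTORC1 signalling, 10 genes, held 2 lower and 3 higher (2 and 6 with library totals), with RPTOR at 1.41. IFRD2, the paralog of IFRD1, was lower (-0.25), without a call under library totals. The 9 exchange factors and GTPases around DOCK4 held 4 lower and 1 higher, and the 8 partners of CTTNBP2 held 2 lower, with CTTN, cortactin, at -0.99, and 3 higher (2 and 5 with library totals).

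**Figure D4:**
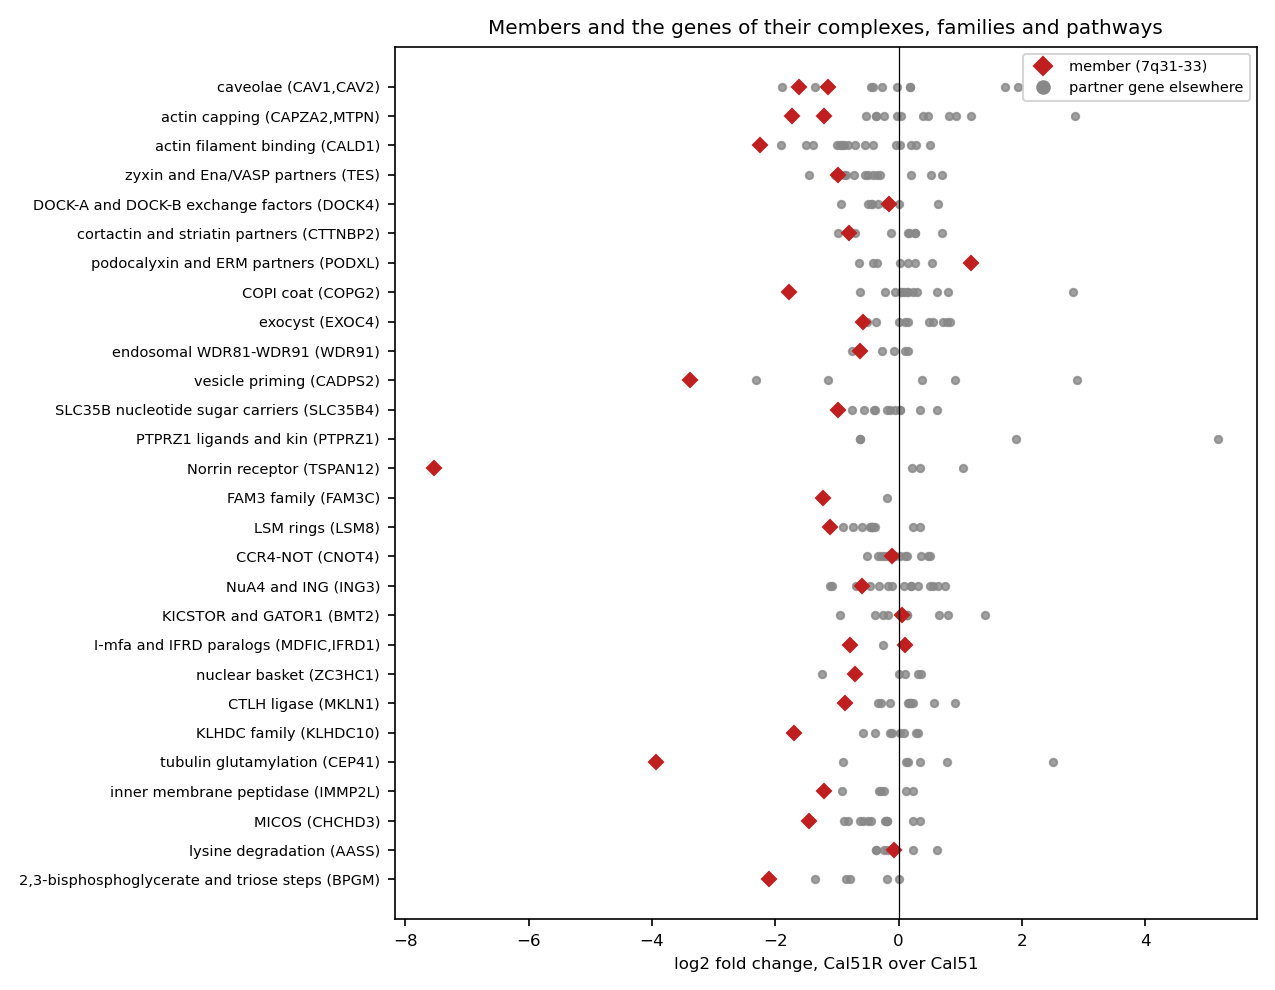
Log2 fold change, Cal51R over Cal51, of the members with a list (red diamonds) and of the tested genes of their complex, family or pathway elsewhere in the genome (grey circles), one row a list. TMEM168, ST7, CPED1 and MEST have no list and PTPRZ1 has no fold change, so they are not drawn. The diamonds lie to the left of 0 except those of BMT2, MDFIC and PODXL. The circles lie on both sides of 0, with a median of -0.10 over all 236, and PODXL stands at 1.17.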

How the data were processed

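Libraries of oligo(dT)-selected mRNA were amplified and sequenced as DNA nanoballs, per the labels' protocols. No source used here names molecular identifiers, and intervals and limits therefore cover counting error alone. RSEM 1.2.8, HISAT2 2.1.0, Bowtie2 2.2.5, DESeq and build hg38 are named, without roles or a gene annotation, in the submitters' processing notes. The deposited read counts are, by their values, expected counts with decimals, one per gene and library per the file headers. The authors also deposited FPKM, used for levels between genes and in 2 alternatives, and TPM, which were not used.

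Counts were rounded and tested with edgeR 4.0.16 (R 4.3.3; TMM scaling, filterByExpr with a minimum count of 10, line as the only term), with Benjamini-Hochberg adjustment over all 13674 genes tested; 3541 were left out. CPM are counts over TMM-scaled library sizes, and SE is the log2 fold change over the root of F. A gene is called at an adjusted p under 0.05. The test was checked on simulated data. Alternatives were RLE factors, library totals, DESeq2 1.42.0, no filter, 5 CPM in 2 libraries, limma 3.58.1 on log2(FPKM + 1) and log2(FPKM + 0.1) for genes with at least 1 FPKM in 2 libraries, a replicate block, and each library left out; a pseudocount understates the change of low genes.

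The members, partner lists and tests were chosen with earlier results of these data known. Named are the members, the other genes in or between the stretches that differ at least 2-fold, and the 3 tested genes beyond each edge. From each partner list at most 2 higher and 2 lower genes of smallest p were named, of which the text gives some. CAVIN1, COPG1, FAM3A and LRP5 were added for their relation to a member. Positions came from RefSeq (GRCh38.p14) by gene ID for 99.6% of genes. A stretch is the span from the first to the last member. In the listed order KLHDC10 stands before ZC3HC1, and in RefSeq it follows it. Chromosome arms were not summarised, and no protein sequence was used.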

Additional observations from a re-analysis of the deposited data

How the results depend on the processing

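The members' median log2 fold change of -1.05 stayed negative under every alternative run. It was -1.06 with RLE factors and without a filter, -0.85 with library totals, -1.07 with DESeq2, -0.95 with at least 5 CPM in 2 libraries, -0.61 on log2(FPKM + 1), -0.79 on log2(FPKM + 0.1), and -1.06 to -1.01 with 1 library left out. Lower members numbered 28 in the main test, 26 with library totals, 25 in both FPKM alternatives and 25 to 28 with 1 library left out. Non-members of the stretches called lower numbered 14, and 9 with at least 5 CPM and in both FPKM alternatives, which test fewer low genes. The sign reversed for DOCK4 (0.04, 0.03 and 0.05), AASS (0.13, 0.11 and 0.13) and CNOT4 (0.09, 0.08 and 0.09) with library totals, log2(FPKM + 1) and log2(FPKM + 0.1), and for BMT2 without the second Cal51R library (-0.02); none of these 4 was called, and beyond the change of scaling the cause was not tested. With library totals 64.7% of all calls were higher, against 49.9% in the main test. Of 1936 values of 164 genes under the alternatives, 1819 kept their direction and side of the threshold, 99 lost their call, 8 gained one and 10 reversed.

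Deviations from the group means of equally numbered libraries correlated at -0.156. With so few libraries a line, crossing the numbers only turns the sign of this value. It therefore cannot decide whether libraries of the lines were paired, by equal or by crossed numbers. With the replicate block 8905 genes were called in place of 9685, 28 of the members lower as before. With the numbers crossed, an alternative chosen after seeing the data, 10657 genes were called, 28 members lower. Depth limits MEST, KLF14, TFEC and PTPRZ1, which had at most 34 reads in any library.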
